A study of Homo sapiens with 8 samples.

Results

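The miR-181 family was followed in 786O cells, an established line of human clear cell renal cell carcinoma (ccRCC), after knockdown of the circular RNA circSOD2. The family was taken by name from the deposited count table. It comprised 7 of the 3112 rows of that table, namely hsa-miR-181a-5p, hsa-miR-181b-5p, hsa-miR-181c-5p and hsa-miR-181d-5p, and the 3p arms hsa-miR-181a-3p, hsa-miR-181a-2-3p and hsa-miR-181c-3p. The table also held 3 further 3p arms of the same hairpins, miR-181b-3p, miR-181b-2-3p and miR-181d-3p, which were not among the 7 members and are described apart from them. The rule by name used no measured value, but the family was chosen with earlier results of these data known.

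Small RNA was sequenced from 4 negative control (NC) samples, which received a control plasmid, and from 4 circSOD2-sh samples, which received the plasmid with a short hairpin RNA against circSOD2. According to the labels RNA was taken 48 h after transfection with Lipofectamine 3000, whereas the methods of the study describe lentivirus and puromycin selection for its shRNA. All samples came from the same line, and nothing says that the replicates were separate cultures, so p-values measure only the spread between these samples. The level of circSOD2 itself in these libraries was not analysed here. In such bulk samples fewer cells of a kind and less RNA per cell cannot be told apart.

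MicroRNAs are cut from hairpin precursors by Drosha and Dicer, and each hairpin can release a 5p and a 3p strand. The strand that is loaded into an Argonaute protein guides it to messenger RNAs, mainly through the seed at its bases 2 to 8, and the other strand is usually degraded. The miR-181 family is conserved in vertebrates and is best known from lymphocytes, where miR-181a sets the sensitivity of the T cell receptor, and from brain and endothelium, where miR-181b is known to restrain NF-kB signalling.

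The mature sequences from RefSeq (GRCh38.p14) are shown because they set out which reads can be assigned to a locus and which cannot. All 10 rows matched by name. The seed is in capitals, and the 4 members of the 5p arm, listed first, share it.
miR-181a-5p: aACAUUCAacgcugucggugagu
miR-181b-5p: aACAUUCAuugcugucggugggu
miR-181c-5p: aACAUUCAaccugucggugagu
miR-181d-5p: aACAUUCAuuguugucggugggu
miR-181a-3p: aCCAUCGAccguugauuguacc
miR-181a-2-3p: aCCACUGAccguugacuguacc
miR-181c-3p: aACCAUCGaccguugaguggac
miR-181b-3p: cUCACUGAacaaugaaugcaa
miR-181b-2-3p: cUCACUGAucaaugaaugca
miR-181d-3p: cCACCGGGggaugaaugucac

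Positions are counted from 1 at the 5′ end, with the base of the first-named miRNA before the position. The 5p arms of miR-181a and miR-181b differ by 3 substitutions (A9U, C10U and A21G), those of miR-181b and miR-181d by 1 (C12U), and miR-181c-5p lacks the base at position 11 of miR-181a-5p. None of these lies in the seed. The 3p arms of the hairpins for miR-181a differ by U5C, C6U and U16C, so the seeds differ, and those for miR-181b differ by A9U over the 20 bases compared. The first 15 bases of miR-181a-3p recur in miR-181c-3p from its position 2, so these arms have nearly the same sequence read in a shifted register. The only other mature miRNA of the RefSeq table with the family seed, miR-4262, had no row in the counts and was not analysed here.

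The 6 hairpins lie in 3 clusters of GRCh38, annotated with GENCODE release 29. On chromosome 1, minus strand, MIR181A1 (198859044 to 198859153) and MIR181B1 (198858873 to 198858982) are separated by 61 bases within an intron of the long non-coding RNA gene MIR181A1HG. On chromosome 9, plus strand, MIR181A2 (124692442 to 124692551) and MIR181B2 (124693710 to 124693798) are separated by 1158 bases within an intron of MIR181A2HG and, on the opposite strand, of NR6A1. On chromosome 19, plus strand, MIR181C (13874699 to 13874808) and MIR181D (13874875 to 13875011) are separated by 66 bases within an intron annotated to NANOS3. Because MIR181A1 and MIR181A2 give the same 5p sequence, as do MIR181B1 and MIR181B2, only the 3p arms separate the loci on chromosomes 1 and 9.

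The NC libraries held 6386872 to 9245044 reads (2344870 to 3573638 of known miRNAs) and those of circSOD2-sh 3743860 to 4208276 (3604691 to 4059249). In every NC library most reads were of predicted miRNAs, and in every circSOD2-sh library most were of known ones. Levels are given as normalized CPM, the CPM of a library after TMM scaling (trimmed mean of M-values), which assumes that most miRNAs do not change. Whether this held here was not tested, and with TMM 65.7% of the miRNAs tested were called as different. A read of a miRNA covers the whole molecule, so no correction for length applies. The scaling matters here. Scaling by library totals moved the median log2 fold change of the 895 miRNAs tested from -0.0022 to 0.96, so modest falls of single miRNAs became rises. Of the 5 kidney tubule markers, miR-30a-5p had at least 173733 counts in every library and miR-215-5p 54 to 87. At most 9 counts of miR-204-5p were found in every library but circSOD2-sh replicate 2. Counts of miR-192-5p were at least 1374 and peaked in NC replicate 4 at 4238, while NC replicates 1 to 3 had 2116 to 2322. This library also had the most miR-194-5p, 411 counts, and NC replicates 1 to 3 had 167 to 196. Its summed level of tubule markers, 40075 normalized CPM, lay within the range of NC replicates 1 to 3 (39512 to 46397). Nearly all of this sum was miR-30a-5p in each library, so it does not show the higher miR-192-5p and miR-194-5p of NC replicate 4. CircSOD2-sh replicate 2 and NC replicate 4 stood apart from the others. In circSOD2-sh replicate 2 the 5 neural markers (3 of them with at least 10 counts in every library) reached a summed level of 5232 normalized CPM, whereas the other 7 libraries had 475 to 559. Most of the sum in those 7 libraries was miR-128-3p. In NC replicate 4 the stromal and smooth muscle markers (4 miRNAs, 1 with at least 10 counts in every library) summed to 557, and the erythroid markers (4 miRNAs, 2 with at least 10 counts in every library) to 171. These sums were 228 and 59.8 in circSOD2-sh replicate 2, and 7.38 to 13.4 and 21.6 to 42.6 in the other 6 libraries. Leukocyte markers (4 miRNAs, none with 10 counts in every library) summed to 17.1 in NC replicate 4 and 14.6 in circSOD2-sh replicate 2 against 1.19 to 3.21. Results are therefore also given without these libraries where they differ.

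In NC the most abundant member was miR-181a-5p, followed by miR-181a-3p, miR-181b-5p, miR-181a-2-3p, miR-181c-3p, miR-181d-5p and miR-181c-5p, and no neighbours in this order overlapped over the 4 libraries. The order of the means was the same in circSOD2-sh, again without overlap between neighbours. Among the 1482 known miRNAs, miR-181a-5p ranked 35 and miR-181c-5p 267 by mean level over all libraries. The family thus spanned more than 2 orders of magnitude in the same cells.

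**Figure D1:**
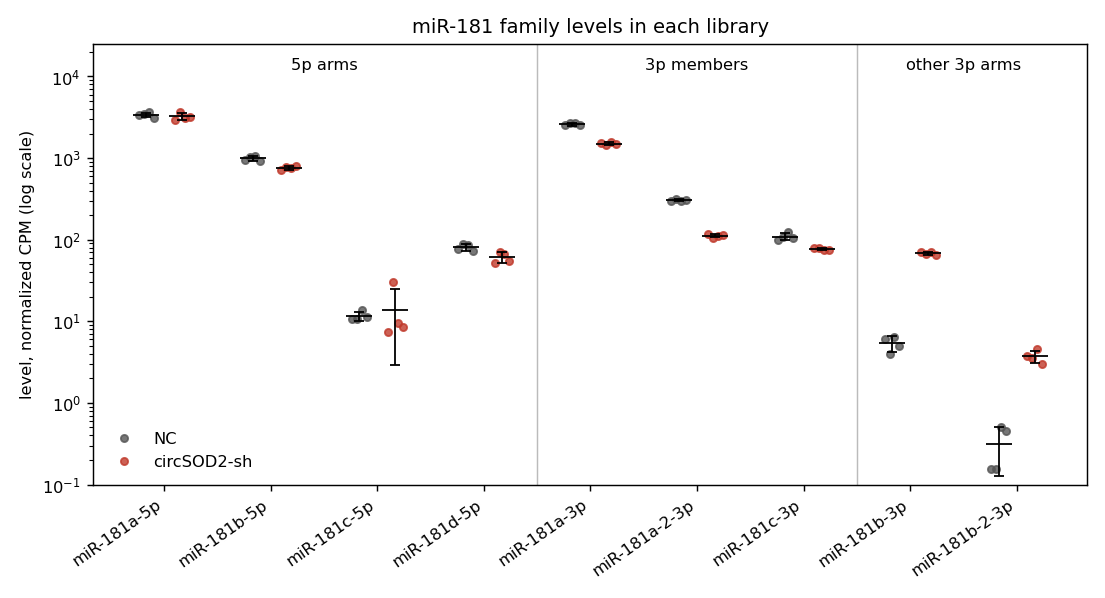
Level of the 7 members and of 2 further 3p arms in each library, in normalized CPM on a log axis; points are libraries, horizontal ticks are means and bars are SD (n = 4 per group). On this scale the 3p arms of miR-181a lie lower in circSOD2-sh than in NC, at 1505 against 2605 (not lower with library totals) and at 112 against 304, the 3p arms of miR-181b lie higher, and miR-181c-5p has a high library in circSOD2-sh at 30.2.

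The question of the comparison was which miRNAs differ after knockdown of circSOD2. With TMM, 5 of the 7 members fell after the knockdown (edgeR quasi-likelihood test, Benjamini-Hochberg adjusted p under 0.05 over the 895 miRNAs tested) and 0 rose, whereas with library totals 5 were higher and 1 was lower. All 7 members passed the low-count filter. Over all miRNAs tested, 65.7% were called in either direction, 32.4% as lower and 33.3% as higher, so being called is near the background for this table. Of the known miRNAs alone 28.5% were lower and 27% higher. At an unadjusted p-value under 0.05 in edgeR 0 members were higher and 5 lower, and DESeq2 gave the same counts after adjustment. The median log2 fold change of the members was -0.40, beside -0.0022 over all miRNAs tested and -0.11 over the 463 known ones. For 5 of the 7 members the NC and circSOD2-sh levels were fully separate, as they were for 60.3% of all miRNAs tested.

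The most abundant guide strand, miR-181a-5p, did not pass the test with TMM. Its counts were 21801, 22341, 21401 and 13882 in NC replicates 1 to 4 and 17390, 20814, 15538 and 17997 in circSOD2-sh replicates 1 to 4, which correspond to 3341, 3436, 3646 and 3117 and to 2953, 3671, 3115 and 3198 normalized CPM. The highest library of all was circSOD2-sh replicate 2, and the groups overlapped. The means were 3385 ± 219 and 3234 ± 309 normalized CPM (SD, n = 4 each), and the log2 fold change of -0.07 (with a standard error, SE, of 0.08, edgeR adjusted p = 0.512) turned to 0.90 with library totals. This value depended on circSOD2-sh replicate 2, without which the log2 fold change was -0.24 (adjusted p = 0.0203 in edgeR), and without that library and NC replicate 4 it was -0.27 (adjusted p = 0.00711 in edgeR).

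The second guide strand, miR-181b-5p, had 6254, 6722, 6280 and 4101 counts in NC and 4198, 4432, 3727 and 4447 in circSOD2-sh. These are 958, 1034, 1070 and 921 against 713, 782, 747 and 790 normalized CPM, and every circSOD2-sh library lay below every NC library. Its mean level was 996 ± 68.2 in NC and 758 ± 35.4 in circSOD2-sh (SD, n = 4 each), a fall of 1.31-fold with TMM (log2 fold change -0.39, SE 0.08, edgeR adjusted p = 0.00135) that turned to a rise of 0.57 on the log2 scale with library totals. The related miR-181d-5p, which differs from it by a single base, was also lower with TMM. It had 501, 568, 499 and 323 counts in NC and 309, 398, 332 and 307 in circSOD2-sh, or 76.8, 87.4, 85.0 and 72.5 against 52.5, 70.2, 66.6 and 54.6 normalized CPM. The gap between the groups was narrow, with means of 80.4 ± 6.95 and 60.9 ± 8.75 (SD, n = 4 each). The log2 fold change of -0.40 (SE 0.13, edgeR adjusted p = 0.0202) turned to 0.56 with library totals and had an adjusted p of 0.0507 in edgeR when no low-count filter was used.

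With TMM both 3p arms of miR-181a fell, of which miR-181a-3p was not lower with library totals. The level of miR-181a-3p, which marks the locus on chromosome 1, was 2523, 2679, 2706 and 2512 normalized CPM in NC and 1511, 1437, 1565 and 1506 in circSOD2-sh. The groups were far apart relative to their spread, at 2605 ± 102 against 1505 ± 52.5 (SD, n = 4 each). With TMM this was a fall of 1.73-fold (log2 fold change -0.79, SE 0.06, edgeR adjusted p = 2.07e-06), whereas with library totals the value was 0.18 (adjusted p = 0.064 in edgeR). The arm that marks chromosome 9, miR-181a-2-3p, was at 300, 311, 295 and 309 normalized CPM in NC and at 117, 105, 112 and 114 in circSOD2-sh, from 1955, 2024, 1733 and 1376 counts and 689, 597, 560 and 641 counts. It was the only member that was lower under every scaling tried, 2.71-fold with TMM (log2 fold change -1.44, SE 0.08, edgeR adjusted p = 1.22e-07) and -0.47 on the log2 scale with library totals. When libraries were left out singly its log2 fold change stayed between -1.59 and -1.48.

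The 3p arm of miR-181c, which is more abundant than its 5p arm in this line, was at 99.5, 107, 124 and 105 normalized CPM in NC and at 78.3, 78.7, 75.8 and 73.7 in circSOD2-sh. No circSOD2-sh library reached the lowest NC library. The means of 109 ± 10.7 and 76.6 ± 2.30 (SD, n = 4 each) correspond to a log2 fold change of -0.51 (SE 0.10, edgeR adjusted p = 0.00141) with TMM, which turned to 0.46 with library totals.

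The 5p arm, miR-181c-5p, was the least abundant member and the most variable. It had 70, 69, 80 and 50 counts in NC and 43, 171, 47 and 48 in circSOD2-sh, or 10.7, 10.6, 13.6 and 11.2 against 7.30, 30.2, 9.42 and 8.53 normalized CPM. CircSOD2-sh replicate 2 was the highest library of all, and the other 3 circSOD2-sh libraries lay below every NC library. With all libraries the log2 fold change was 0.26 (SE 0.43, edgeR adjusted p = 0.598), and without circSOD2-sh replicate 2 it was -0.56 (adjusted p = 0.0153 in edgeR). In that library the neural markers were raised as well, with 18220 counts of miR-124-3p, the most neuron-specific of them, against 5 to 15 in the others. Their part in the level of miR-181c-5p was not tested. Without this library and NC replicate 4 all 7 members were lower with TMM (adjusted p-values under 0.05 in edgeR).

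**Figure D2:**
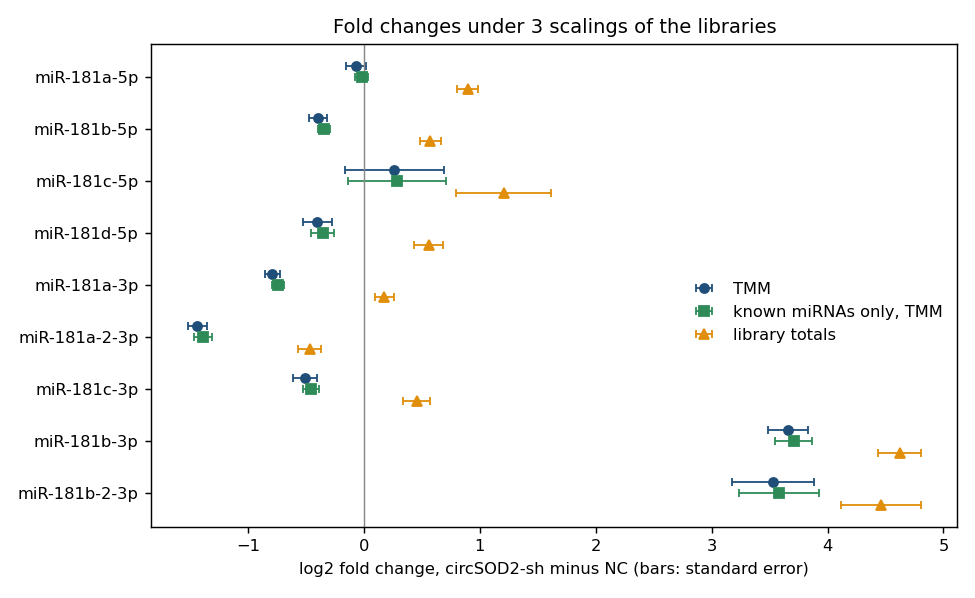
Log2 fold change of circSOD2-sh against NC for the 7 members and 2 further 3p arms, with bars for the standard error, under TMM over all miRNAs, TMM over known miRNAs only, and library totals. Library totals move every value to the right, and miR-181a-2-3p alone among the members stays below 0, at -1.44, -1.39 and -0.47. The values of miR-181b-2-3p rest on very few reads in NC and carry no test.

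The make-up of the family within a library does not depend on how libraries are scaled. Of the summed counts of the 4 5p members, miR-181a-5p held 76.2%, 75.2%, 75.7% and 75.6% in NC and 79.3%, 80.6%, 79.1% and 78.9% in circSOD2-sh. The share of miR-181b-5p was 21.8%, 22.6%, 22.2% and 22.3% in NC and 19.1%, 17.2%, 18.97% and 19.5% in circSOD2-sh. Neither share overlapped between the groups. The mean share of miR-181a-5p was 3.797 percentage points higher in circSOD2-sh, and that of miR-181b-5p was 3.57 points lower (exact two-sided permutation test, p = 0.0286 each). That p is the smallest that 4 libraries against 4 allow, and 5 shares were tested in this way without adjustment. The shares of the 4 5p members are parts of the same total, so their differences are not independent. The share of miR-181d-5p was 1.80% ± 0.0772 in NC and 1.497% ± 0.153 in circSOD2-sh (SD, n = 4 each), also without overlap (exact permutation test, p = 0.0286). That of miR-181c-5p was 0.196% to 0.239% in 3 circSOD2-sh libraries and 0.662% in replicate 2, against 0.232% to 0.283% in NC (exact permutation test, p = 0.971).

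The split of reads between the 3p arms of miR-181a was compared in the same way. Of the counts of its 3p arms, the chromosome 9 arm miR-181a-2-3p held 10.6%, 10.4%, 9.84% and 10.95% in NC and 7.18%, 6.83%, 6.69% and 7.03% in circSOD2-sh. The chromosome 1 arm was the larger in every library. The difference of -3.52 percentage points was without overlap (p = 0.0286 by the same exact permutation test) and lay between -3.73 and -3.35 when each library was left out in turn. Of the 3p counts of miR-181b, the chromosome 9 arm held 2.44% to 8.33% in NC and 4.49% to 6.10% in circSOD2-sh, and these groups overlapped. Over the known miRNAs alone, the 4 5p members together accounted for 0.783% to 0.855% of reads without and 0.545% to 0.636% with the knockdown.

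**Figure D3:**
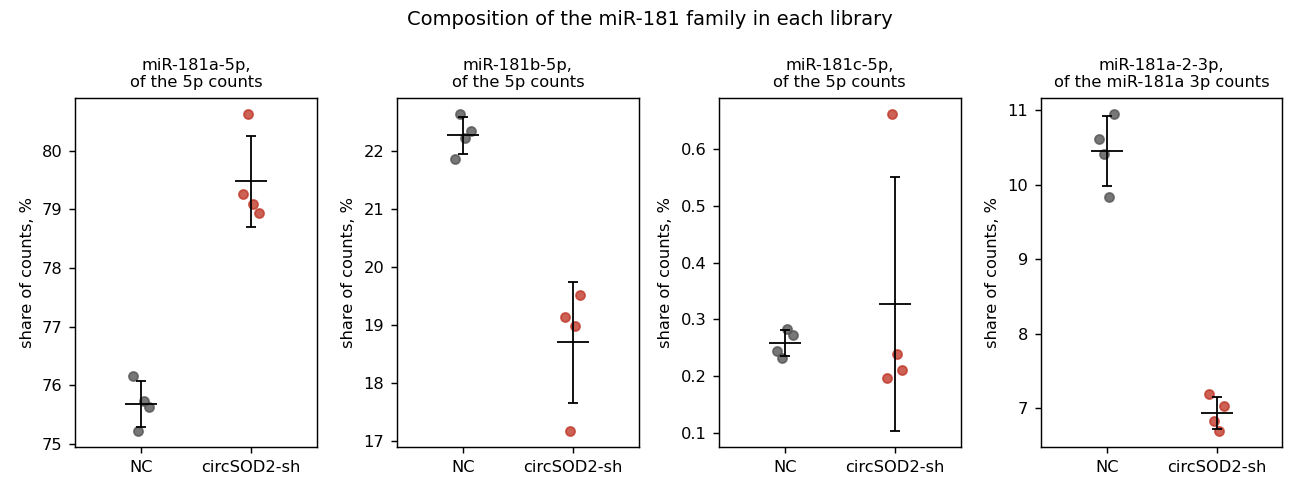
Shares of counts within the family in each library, in percent, with means and SD (n = 4 per group); the vertical axes do not start at 0. The share of miR-181a-5p among the 5p counts is higher and those of miR-181b-5p and of miR-181a-2-3p are lower in all 4 circSOD2-sh libraries, and miR-181c-5p has 1 high library at 0.662%.

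The 3p arms of miR-181b, from hairpins next to those of miR-181a, went the other way. The counts of miR-181b-3p (chromosome 1) were 40, 26, 38 and 22 in NC and 414, 382, 354 and 362 in circSOD2-sh. This is 5.39 ± 1.13 against 68.2 ± 3.04 normalized CPM (SD, n = 4 each), so that in circSOD2-sh this arm reached the range of miR-181d-5p. It rose 12.7-fold, a log2 fold change of 3.66 (SE 0.17, edgeR adjusted p = 3.33e-08) with TMM and 4.62 with library totals. For miR-181b-2-3p (chromosome 9) there were 1, 1, 3 and 2 counts in NC and 22, 20, 23 and 17 in circSOD2-sh. No NC library exceeded 3 counts, the floor taken per library, which is at most 0.674 normalized CPM. At 3.72 ± 0.66 normalized CPM (SD, n = 4) in circSOD2-sh, this arm was at least 5.53-fold higher. It passed the low-count filter only through the group in which it was high, so no test is given for it. The third of these arms, miR-181d-3p (chromosome 19), had 1, 4, 1 and 0 counts in NC and 13, 6, 5 and 7 in circSOD2-sh and did not pass the low-count filter. The groups were fully separate for miR-181b-3p, as they were for 60.3% of all miRNAs tested. They were also separate for miR-181b-2-3p and miR-181d-3p, but both rest on very few reads in NC and carry no test. The floors cover counting error only, since PCR copies are counted as separate molecules.

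The arms were then compared within each library as log2 of 5p over 3p levels. Leaving out miR-181b-2-3p, the ratio differed in 3 of the 4 pairs of the family (adjusted p-values under 0.05 in limma over 139 pairs of arms), where 61.2% of all pairs differed, 29.5% towards the 5p arm and 31.7% towards the 3p arm. For miR-181a-5p over miR-181a-3p the ratio was 0.41, 0.36, 0.43 and 0.31 in NC and 0.97, 1.35, 0.99 and 1.09 in circSOD2-sh. The guide was the larger strand in every library, and its lead was greater in circSOD2-sh, a change of 0.72 (SE 0.13, limma adjusted p = 0.000652). The ratio over miR-181a-2-3p changed by 1.37 (SE 0.14, limma adjusted p = 1.43e-05), with NC libraries between 3.33 and 3.62 and circSOD2-sh libraries between 4.65 and 5.12. Together the 3p arms held 45.1% to 47.5% of all miR-181a reads of NC libraries, against 29.6% to 35.5% after the knockdown.

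The ratio of miR-181b-5p to miR-181b-3p moved in the opposite direction. It was 7.18, 7.84, 7.26 and 7.40 in NC and 3.33, 3.53, 3.39 and 3.61 in circSOD2-sh, a change of -3.96 (SE 0.17, limma adjusted p = 5.43e-08). Only 7 of the 139 pairs changed further towards the 3p arm. In counts, miR-181b-3p went from at most 0.636% of the sum of these arms in any NC library to at least 7.53% in every circSOD2-sh library, so the guide remained the larger strand. The ratio to miR-181b-2-3p is given without a test, since that arm passed the filter only through circSOD2-sh. It changed by -2.78, a size that depends on the constant added to the low NC counts, being -1.69 with 2 normalized CPM added and -3.70 with 0.1 added. Since the 5p reads of miR-181a and miR-181b come from 2 loci each, these ratios set a shared strand against the arm of a single locus.

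For miR-181c the 3p arm led in every library. Its log2 ratio of 5p to 3p levels was -3.15, -3.27, -3.14 and -3.17 in NC and -3.34, -1.37, -2.94 and -3.04 in circSOD2-sh, a change of 0.51 (SE 0.38, limma adjusted p = 0.273). The exception was again circSOD2-sh replicate 2, in which the 3p arm held 72.3% of the counts of this hairpin, against 88.9% to 91.5% in the other 7 libraries. Without that library and NC replicate 4 the change was 0.09 (adjusted p = 0.634 in limma), and the 3 ratios that differed above still did.

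**Figure D4:**
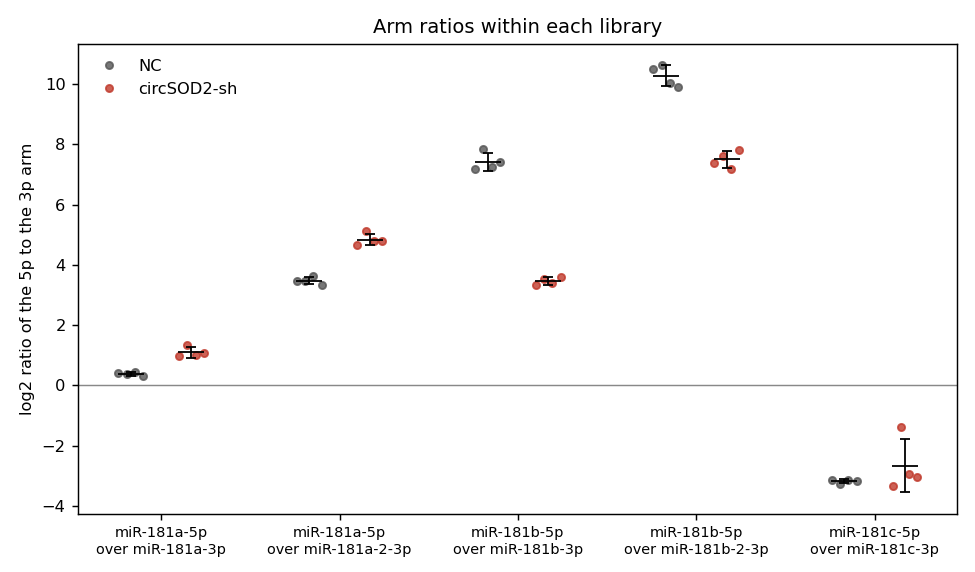
Log2 of 5p over 3p levels in each library for the 5 pairs of arms of the family, with means and SD (n = 4 per group); values above 0 mean a higher level of the 5p arm. The ratios of miR-181a rise and that of miR-181b-5p to miR-181b-3p falls in circSOD2-sh without overlap of the groups. The ratio to miR-181b-2-3p rests on very few reads in NC, its size depends on the constant added, and no test is given for it. The ratio of miR-181c lies below 0 in all 8 libraries, from -3.34 to -1.37.

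The miRNA genes MIR23A, MIR27A and MIR24-2 form another cluster on the opposite strand of chromosome 19, and 38039 bases separate MIR23A from MIR181C. All 6 of their listed arms were tested, and with TMM 2 were higher, 3 lower and 1 was not called, whereas with library totals 5 were higher and 1 lower. Over all 895 miRNAs tested, 33.3% were higher and 32.4% lower with TMM, and 613 were higher and 158 lower with library totals. The guide of miR-23a, miR-23a-3p, was at 567 ± 49.0 normalized CPM in NC and rose to 7943 ± 1176 (SD, n = 4 each) and its passenger strand miR-23a-5p fell from 67.3 ± 3.34 to 7.78 ± 0.97, with log2 fold changes of 3.81 and -3.11 (adjusted p = 2.43e-09 and 1.73e-08 in edgeR). Both kept their direction with library totals. For miR-27a the directions with TMM were the reverse, at -0.61 for miR-27a-3p and 1.44 for miR-27a-5p (adjusted p = 3.55e-05 and 9.95e-07 in edgeR). With library totals these arms of miR-27a were at 0.35 and 2.40. The arms of miR-24 were at -0.56 (miR-24-2-5p, edgeR adjusted p = 0.00131) and -0.12 (miR-24-3p, edgeR adjusted p = 0.376) with TMM and at 0.40 and 0.85 with library totals.

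Of 12 miRNAs known as regulators of blood cells 9 could be tested. With TMM 3 were higher, 3 lower and 3 not called, and with library totals 8 were higher and 0 lower. The 6 of 9 called with TMM are near the 65.7% of all miRNAs tested, and most of these (613 of 895) were also higher with library totals. The lymphoid marker miR-150-5p had at most 36 counts, and the leukocyte markers miR-142-3p and miR-223-3p at most 3 and 2, in any library. The other arm of that hairpin, miR-142-5p, had 71 counts in NC replicate 4, 46 in circSOD2-sh replicate 2 and 4 to 15 in the other 6 libraries. The regulator of NF-kB signalling miR-146a-5p was the most abundant of the list, at 61385 ± 2434 normalized CPM in NC and 49415 ± 3333 in circSOD2-sh (SD, n = 4 each), with a log2 fold change of -0.31 (adjusted p = 0.00224 in edgeR) that turned to 0.65 with library totals.

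The miRNAs whose profile over the 8 libraries was most like that of each member were sought among 278 known miRNAs outside the family with a mean of at least 10 normalized CPM, by the mean absolute difference of centred log2 levels. The nearest were miR-20a-3p and miR-429 for miR-181a-5p (0.06 for each), miR-151a-3p and miR-146a-5p for miR-181b-5p (0.05 and 0.06), and miR-130a-3p and miR-340-5p for miR-181d-5p (0.05 and 0.06). For miR-181a-3p they were miR-550a-5p and miR-550a-3-5p (0.05 and 0.06), for miR-181a-2-3p miR-1180-3p and miR-92b-5p (0.09 and 0.10), and for miR-181c-3p miR-27b-5p and miR-769-5p (0.03 and 0.05). The profile of miR-181c-5p was matched less closely, by miR-218-5p and the neural marker miR-128-3p (0.20 each). Within the family the closest profiles were those of miR-181b-5p and miR-181c-3p, at 0.08.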

How the data were processed

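The authors deposited counts of reads per mature miRNA, without normalization, and CPM that they computed over totals of which the listed counts made up 93.3% to 93.9% in NC and 83.7% to 85.7% in circSOD2-sh. Their own comparison of the groups, a table of CPM means, fold changes, tests and calls, was not used. The submitters' processing notes name FastQC 0.11.2, Trimmomatic 0.36, Bowtie 1.1.1 and GRCh38. The counting tool, the mismatches allowed and the miRNA release are not given in the sources used here, so how reads shared by the near-identical 5p arms were split is unknown.

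Columns were tied to samples through their titles. Counts were fitted with edgeR 4.0.16 in R 4.3.3 (filterByExpr with a minimum count of 10, TMM, quasi-likelihood test, prior count 0.125, Benjamini-Hochberg adjustment), and arm ratios with limma 3.58.1 after adding 0.5 normalized CPM to each arm. Alternatives were DESeq2 1.42.0, other scalings and filters, limma on the deposited CPM, the replicate number as a block, and libraries left out. The members, lists and tests were chosen with earlier results of these data known. Named miRNAs are the members, the other arms of their hairpins, the listed neighbours and regulators, and for each member the 2 nearest profiles. The ratios of 3p arms per 1000 counts were chosen after their values were seen. Within groups, libraries differed beyond sampling noise (chi-square per degree of freedom of at least 9.45). The fits were tested on simulated data. Python 3.11.15, scipy 1.17.1, pandas 2.3.3 and matplotlib 3.10.9 were used.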

Additional observations from a re-analysis of the deposited data

Results flagged for a closer look

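Of 40 groups of 4 libraries examined for the family (levels, shares and arm ratios), 3 had a library far from the others, where chance gives about 2 (1 in 20 groups). The groups reuse the same counts and 2 of the 3 rest on the same reads of miR-181c-5p. The comparison with chance therefore does not weigh how unusual a library is. The level of miR-181c-5p was 30.2 normalized CPM in circSOD2-sh replicate 2 and between 7.30 and 9.42 in the rest of that group. Its share of the 5p counts in the same library was 0.662%, against 0.196% to 0.239%. The neural markers were raised in this library, and their part in these values was not tested. The share of miR-181d-5p was 1.91% in NC replicate 2 and between 1.75% and 1.77% in the rest of NC, a small difference in a narrow group.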

How the results depend on the processing

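The direction of most members rests on the scaling of the libraries. With library totals, upper-quartile factors, limma on log2(CPM + 1) and limma on log2(CPM + 0.1), in this order, the log2 fold changes turned to 0.90, 0.77, 0.76 and 0.76 for miR-181a-5p, 0.57, 0.45, 0.43 and 0.43 for miR-181b-5p, 0.56, 0.43, 0.41 and 0.42 for miR-181d-5p, 0.18, 0.0528, 0.0329 and 0.0330 for miR-181a-3p, and 0.46, 0.33, 0.32 and 0.32 for miR-181c-3p. Under these settings 5, 5, 4 and 4 members were called higher and 1, 1, 1 and 1 lower, and over all miRNAs 613, 570, 559 and 553 were higher and 158, 160, 163 and 163 lower. Under library totals and upper-quartile factors miR-181c-5p, at 1.21 and 1.06, gained an adjusted p-value under 0.05. With a mean of at least 50 counts 361 miRNAs were called (149 higher), and with known miRNAs only 246 (123 higher and 123 lower), both of fewer miRNAs tested. Without circSOD2-sh replicate 2 and NC replicate 4 miR-181c-5p was at -0.57 and its share of the 5p counts differed by -0.0381 percentage points. With single libraries left out, miR-181c-5p lay between -0.56 and 0.34, the difference of its share between -0.0428 and 0.113 points, that of miR-181a-5p between 3.42 and 3.98, and the members called between 5 and 7, always as lower. Correlations of deviations between same-numbered libraries of the groups were 0.26, -0.10, 0.10 and -0.17 over 895 miRNAs. The highest with a library of another number were 0.24, 0.10, 0.06 and 0.26. These values do not decide whether the numbers pair the libraries. With the replicate number as a block 574 miRNAs, 5 members and 79 arm ratios were called. The rise of miR-181b-3p, the fall of miR-181a-2-3p and the 3 arm ratios called kept their direction and an adjusted p-value under 0.05 in each alternative that tested them. Levels under about 0.7 normalized CPM are at the limit of 3 counts.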

Other observations

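Hairpins that lie in the same transcript can be compared through their 3p arms, whose sequences differ between loci. Those of miR-181b differ by only 1 base over the 20 compared, and the mismatches allowed in counting are not given. Whether some reads counted as miR-181b-2-3p came from miR-181b-3p was not tested. On chromosome 1 there were 1.49 to 2.43 counts of miR-181b-3p per 1000 counts of miR-181a-3p in the NC libraries and 42.7 to 46.9 in the circSOD2-sh libraries. On chromosome 9 there were 0.494 to 1.73 counts of miR-181b-2-3p per 1000 counts of miR-181a-2-3p in NC and 26.5 to 41.1 in circSOD2-sh, where the NC values rest on 1 to 3 counts each. These ratios need no scaling of the libraries.

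In GENCODE release 29 on GRCh38, the 3 exons of SOD2 whose back-splice junction holds an shRNA target of the study have 462 bases together and lie on chromosome 6 from 159682474 to 159688242. The circle was searched on the sense strand for TGAATGT, the 7 bases complementary to the miR-181 seed, and for its 6-base part GAATGT, every match of the longer motif also being a match of the shorter. It held 0 of the first and 2 of the second. Of 175334 windows of 462 bases from the middle of GENCODE transcripts, 4.34% held the 7 bases, 12.7% held the 6 bases and 1.31% held the 6 bases at least 2 times. These are counts of letters and say nothing about binding.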
